A study of Homo sapiens with 10 samples.

Results

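The genes described here are the insulin-like growth factor (IGF) binding proteins IGFBP1 to IGFBP7, the ligand IGF2 and the receptors IGF1R and IGF2R, followed across 10 Affymetrix arrays of cultured human cells. A probe set was taken where the array's annotation gave it 1 listed symbol only, and each gene was read from its probe set with the highest mean over the 10 arrays. Of the 10 genes, 9 had such a probe set, out of 19775 genes on the array; the probe sets for IGF2 also carry the symbol of the INS-IGF2 readthrough gene, so IGF2 was not measured on its own. The values are log2 intensities, on which a difference of 1 is a doubling, and levels are compared between arrays for 1 probe set and never between genes.

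HCT116, a colorectal carcinoma line, and Hke3, a line derived from HCT116, were each profiled alone, with vitamin D3 for 24 hours, in coculture with THP1 macrophages, and in coculture with vitamin D3. Tumour cells and macrophages shared soluble factors without contact. THP1, a monocytic leukaemia line used as a macrophage model, was profiled alone and with vitamin D3. Both colon lines were grown in MEM and THP1 in RPMI, each with 10% serum, and every condition has 1 array. The dose and form of vitamin D3 are not given in the sources used here, and Hke3 is 1 derived line.

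IGF1 and IGF2 are secreted growth factors that act through IGF1R, a receptor tyrosine kinase that signals through IRS adaptors to PI3K and AKT and through SHC to MAP kinases. IGF2R, the cation-independent mannose 6-phosphate receptor, binds IGF2 and carries it to lysosomes, and also sorts lysosomal enzymes. IGFBP1 to IGFBP6 bind the ligands outside the cell with high affinity and set how much reaches the receptor, while IGFBP7 binds IGFs weakly. Proteases such as PAPPA cleave the binding proteins and release the ligand. In colon carcinoma, IGF2 and IGF1R are known as growth and survival factors, and IGFBP3 is known both for holding IGFs and for effects that do not need them.

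IGFBP3 and IGFBP6 gave the results that turned on coculture, and IGF2R a receptor difference seen on both of its probe sets above the dim level, so the 250 bases before the annotated start of these 3 genes are shown. They come from RefSeq's table for GRCh38.p14, which held 7 of the 10 genes, are written 5′ to 3′ on the gene's strand, and were searched on both strands. In that build IGFBP3 lies at chr7:45912245-45921272 next to IGFBP1 (chr7:45888488-45893660), IGFBP6 at chr12:53097667-53102340 and IGF2R at chr6:159969082-160111504, and each window ends at the base before the gene. Capitals mark the hypoxia response core letters ACGTG or GCGTG in IGFBP3 and IGFBP6, and the E-box CACGTG in IGF2R.
IGFBP3, chr7:45921273-45921522, minus strand: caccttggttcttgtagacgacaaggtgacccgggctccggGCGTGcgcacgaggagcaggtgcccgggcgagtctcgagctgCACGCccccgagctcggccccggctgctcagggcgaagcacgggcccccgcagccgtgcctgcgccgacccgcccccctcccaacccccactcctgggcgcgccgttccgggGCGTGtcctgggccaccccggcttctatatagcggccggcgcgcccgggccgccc
IGFBP6, chr12:53097417-53097666, plus strand: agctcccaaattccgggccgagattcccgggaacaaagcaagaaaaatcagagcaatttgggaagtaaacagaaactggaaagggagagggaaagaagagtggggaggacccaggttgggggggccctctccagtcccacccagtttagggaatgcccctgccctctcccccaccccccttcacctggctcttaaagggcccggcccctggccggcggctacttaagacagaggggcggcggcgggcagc
IGF2R, chr6:159968832-159969081, plus strand: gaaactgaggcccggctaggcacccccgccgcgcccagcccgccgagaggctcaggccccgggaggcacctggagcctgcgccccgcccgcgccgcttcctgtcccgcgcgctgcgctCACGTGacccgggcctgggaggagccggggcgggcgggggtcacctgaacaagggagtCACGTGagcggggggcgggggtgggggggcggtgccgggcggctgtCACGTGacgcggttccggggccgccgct

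The IGFBP3 window held 3 GCGTG matches, letters found at least once in 32.216% of 35116 promoter windows of this length, and no ACGTG, found in 18.513%. It also held 1 match to the TATA-like letters TATATA, found in 3.73% of windows. The hypoxia core letters were not particular to IGFBP3. Of the members searched but not shown, IGF1R held 4 GCGTG and 1 ACGTG, and IGFBP2 held 1 GCGTG. IGFBP4 and IGFBP5 held neither. The IGFBP6 window held neither hypoxia core and 1 match to the TEAD letters GGAATG, found in 11.889%. In the IGF2R window CACGTG stood 3 times, against at least 1 match in 6.345% of windows; each CACGTG also reads as ACGTG on either strand, which gives its 6 ACGTG matches. The AP-1 letters TGANTCA, found in 6.573% of windows, were in none of the members' windows searched. The 3 windows were 76.0%, 61.2% and 79.2% G and C. These matches describe letters in the reference, and the arrays measured no binding.

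Arrays give no read depth, so the precision is limited by their number. The deposited values ran from 2.98 to 15.2, with array medians from 6.15 to 6.21, and 6.18, the median of all values, was the level below which a probe set was treated as dim. Of 24 probe sets for these genes, 15 were above it on at least 1 array. Of 15 epithelial markers on the array, 13 were above it on each of the 8 colon arrays, while KRT20 and CDH17, which mark differentiated intestine, lay under it on each of the 10 arrays. All 14 macrophage markers were above it in THP1 (medians 11.48 and 11.70), against 4 on 7 colon arrays and 5 on the array of Hke3 with THP1 and vitamin D3 (medians 5.32 to 5.54). On that last array SRGN, a myeloid granule proteoglycan, read 6.28, against 3.94 to 4.90 on the other colon arrays and 13.90 and 14.05 in THP1. CYP24A1, the vitamin D-degrading enzyme induced by the vitamin D receptor, was higher in the arrays labelled vitamin D3 without coculture, by 1.44 in HCT116, 1.45 in Hke3 and 5.88 in THP1. Between the cocultured arrays it was lower in those labelled vitamin D3, with differences of -0.98 in HCT116 and -1.36 in Hke3. The labels were used as given, and the mean of the cocultured pair of a line does not depend on which of its arrays had vitamin D3.

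**Figure D1:**
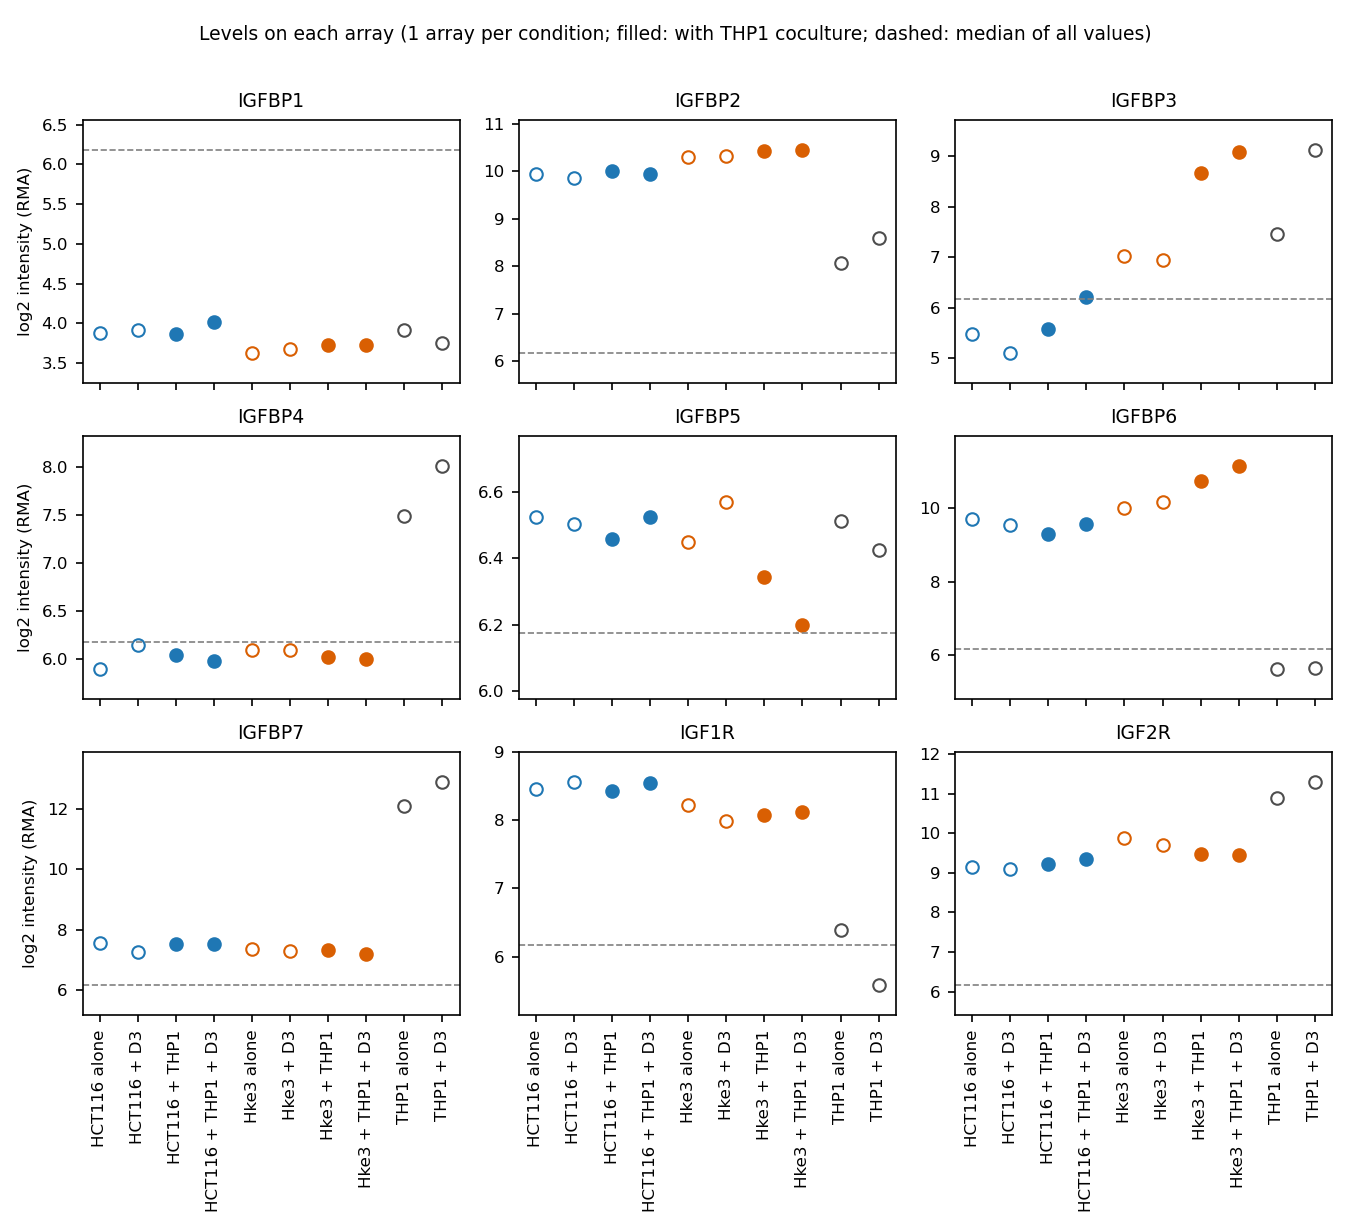
Log2 intensity (vertical axis) of the chosen probe set of the 9 measured genes on each of the 10 arrays, with filled points for cocultures and a dashed line at 6.18, the median of all values. IGFBP3 ran from 5.11 to 9.08 over the colon arrays, and IGFBP7 was at 12.10 and 12.89 in THP1 against at most 7.56 in the colon lines.

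Coculture with macrophages was compared first, over the 4 pairs of colon arrays that by their labels differ only in THP1 cells. IGFBP3, the main carrier of IGFs in serum, rose with coculture and was the only one of the 7 binding proteins and receptors tested that did. In HCT116 it read 5.49 alone, 5.11 with vitamin D3, 5.58 with THP1 and 6.21 with both. In Hke3 it read 7.03 alone, 6.95 with vitamin D3, 8.67 with THP1 and 9.08 with both. Both cocultures were thus above both other cultures in each line, but the HCT116 values lay below or close to the dim level, and every Hke3 value was above every HCT116 value. The fitted difference was 1.24 ± 0.27 (SE of the limma fit; 95% interval 0.62 to 1.86; adjusted p = 0.0332; 2.36-fold, higher in 4 of 4 pairs), an approximate size because the mean without coculture, 6.15 ± 0.99 (SD, n = 4), was under 6.18. Each array measured RNA pooled over many cells, in which more RNA per cell and more cells with the RNA cannot be told apart.

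The second IGFBP3 probe set moved less. It read 5.96, 6.09, 6.14 and 6.12 in HCT116 and 6.33, 6.60, 7.45 and 8.04 in Hke3, in the same order of cultures. Its 4 pairs differed by 0.18 and 0.02 in HCT116 and by 1.11 and 1.44 in Hke3, and its fitted difference of 0.69 did not pass (limma adjusted p = 0.12). The call on the first probe set was kept when the array of HCT116 alone or of HCT116 with THP1 was left out and lost when any of the other 6 was, with adjusted p from 0.0276 to 0.0952. Without the array of Hke3 with THP1 and vitamin D3, on which SRGN was raised, the difference was 1.01 (limma adjusted p = 0.0691). The call was also lost with a block of the other 2 factors, which compares within the 4 pairs (limma adjusted p = 0.0712), and with trend and robust eBayes (limma adjusted p = 0.0617).

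limma called 1035 of 13243 genes for coculture, or 7.82%, and 1 of the 7 members tested. The members' median difference was 0.02 and that of all tested genes -0.02. IGFBP2, which binds both IGFs, was higher in 4 of 4 pairs but by 0.09 ± 0.05 (95% interval -0.02 to 0.21; limma adjusted p = 0.288). IGFBP6, which prefers IGF2, differed by 0.33 ± 0.20 (adjusted p = 0.327 by limma), with the lines apart as described next. IGFBP5, IGFBP7, IGF1R and IGF2R differed by -0.13, 0.02, -0.01 and -0.08, none past the threshold, with a mixed sign over the pairs of each. IGFBP1 and IGFBP4 did not pass the level needed for testing on the colon arrays.

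IGFBP6 was the member whose response to coculture differed between the lines on its chosen probe set, and the second probe set of IGFBP3, given below, passed too. In HCT116 it read 9.70 alone, 9.52 with vitamin D3, 9.30 with THP1 and 9.56 with both, and in Hke3 10.00, 10.15, 10.72 and 11.12. The HCT116 cocultures lay within the range of the other HCT116 arrays or below it, whereas both Hke3 cocultures were above every other array. The mean coculture difference was -0.18 in HCT116 and 0.85 in Hke3 (1.80-fold). The difference between these was 1.03 ± 0.18 (95% interval 0.61 to 1.44; limma interaction, adjusted p = 0.0252). The pairs were -0.40 and 0.04 in HCT116 and 0.72 and 0.97 in Hke3. Leaving out the array of HCT116 with vitamin D3 or of Hke3 with THP1 kept the call, and leaving out any of the other 6 lost it (limma adjusted p from 0.0258 to 0.101).

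IGFBP3 and IGF2R had interactions of the opposite sign to each other, and neither passed on its chosen probe set. The mean coculture difference of IGFBP3 was 0.59 in HCT116 (1.51-fold) and 1.89 in Hke3 (3.70-fold), and these differed by 1.30 ± 0.30 (95% interval 0.59 to 2.003; limma adjusted p = 0.0610). The second IGFBP3 probe set gave 1.17 ± 0.19 and passed (adjusted p = 0.0297 by limma over probe sets), where the chosen one had an adjusted p of 0.0751 in the same limma fit. With the vitamin D3 labels of the cocultures exchanged, a setting added after the data were seen, the chosen IGFBP3 probe set passed too (limma adjusted p = 0.0051), as did IGF2R. For IGF2R it was 0.17 in HCT116 and -0.32 in Hke3, with a difference of -0.49 ± 0.11 (95% interval -0.75 to -0.22; limma adjusted p = 0.0609). On the chosen IGF2R probe set both HCT116 pairs were higher in coculture (0.07 and 0.26) and both Hke3 pairs lower (-0.38 and -0.26). On its second probe set 1 Hke3 pair was higher by 0.29, and the interaction was -0.23. For the interaction limma called 557 of 13243 genes, or 4.21%, and 1 of 7 members, whose median of 0.02 equalled that of all tested genes at 2 decimals.

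The ACTB 3′ minus 5′ probe set difference, a measure of RNA integrity that grows as RNA degrades, was lower in the Hke3 cocultures (0.62 and 0.56) than in the other Hke3 arrays (0.94 and 0.72), and ran from 0.16 to 0.30 in HCT116. Its part in the coculture values of IGFBP3, IGFBP6 and IGF2R was not tested. The second IGFBP7 probe set read 12.41 and 13.01 in THP1, 3.50 and 3.81 in the cocultured Hke3 arrays and 3.55 and 3.68 in the cocultured HCT116 arrays. Its pairs with and without THP1 differed by -0.10 and 0.12 in Hke3 and by -0.07 and 0.28 in HCT116. IGFBP6 was itself dim in THP1, at 5.64 and 5.66, whereas IGFBP3 read 7.46 and 9.11 there. A part of macrophage RNA in the coculture values was not tested.

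**Figure D2:**
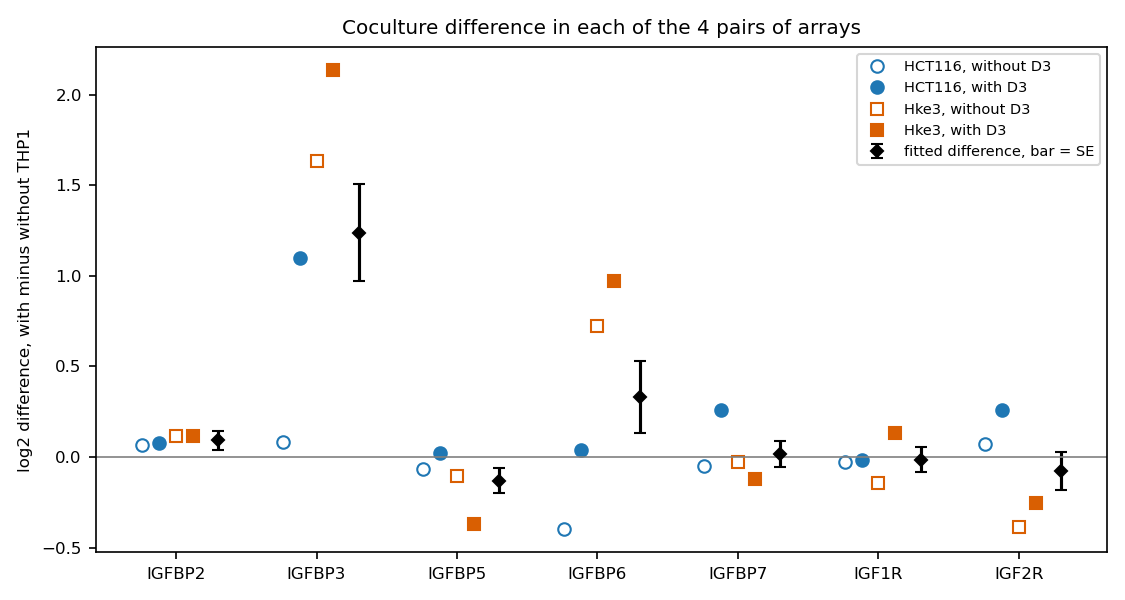
Coculture minus no coculture (log2, vertical axis) for the 7 members tested, with 1 point for each of the 4 pairs of arrays and the fitted difference with its standard error. IGFBP3 lies above 0 in 4 of 4 pairs, and the Hke3 pairs of IGFBP6 (0.72 and 0.97) lie apart from its HCT116 pairs (-0.40 and 0.04).

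The lines themselves differed in 5 of the 7 members tested, 4 higher and 1 lower in Hke3. limma called 5364 of 13243 genes between the lines, or 40.5%, and the members' median difference was 0.42 against 0.01 for all tested genes. Hke3 arrays also had the larger ACTB 3′ minus 5′ difference (0.56 to 0.94 against 0.16 to 0.30), which cannot be told apart from the line.

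Among the binding proteins, IGFBP3 had the largest difference. Hke3 exceeded HCT116 by 1.54 alone, 1.83 with vitamin D3, 3.09 with THP1 and 2.87 with both, and the fit gave 2.33 ± 0.27 (5.04-fold; limma adjusted p = 0.000386). As 3 of the 4 HCT116 values were dim, that size is approximate; on the second probe set it was 1.03 (adjusted p = 0.00798 over probe sets, limma). IGFBP6 was higher by 0.30 and 0.63 without coculture and by 1.42 and 1.56 with it, and the fit gave 0.98 ± 0.20 (1.97-fold; limma adjusted p = 0.00564).

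IGFBP2 was steadier than either. It lay between 9.86 and 10.01 on the 4 HCT116 arrays and between 10.30 and 10.44 on the 4 Hke3 arrays, so the lines did not overlap. Hke3 was higher by 0.44 ± 0.05 (1.36-fold; limma adjusted p = 0.000416). IGFBP5, the neighbour of IGFBP2 on chromosome 2, was not called: the difference was -0.11 ± 0.07 (limma adjusted p = 0.235), on levels of 6.20 to 6.57 that were close to the dim level. IGFBP7 differed by -0.17 ± 0.07 and did not pass (limma adjusted p = 0.0852).

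The receptors differed in opposite directions. IGF1R, the signalling receptor, read 8.46, 8.56, 8.44 and 8.54 in HCT116 (alone, vitamin D3, THP1, both) and 8.22, 7.99, 8.08 and 8.13 in Hke3. The groups did not overlap, and Hke3 was lower by 0.40 (difference -0.40 ± 0.07; limma adjusted p = 0.00261). The other IGF1R probe sets did not give 1 direction: one was lower in Hke3 (-0.66, adjusted p = 0.00106 by limma over probe sets), and for another pair the differences were 0.13 and 0.07 and did not pass (limma adjusted p = 0.427 and 0.55). The IGF1R call therefore holds for 2 of its probe sets and not for each of them. On the mean of its probe sets the difference was smaller, at -0.18, and was still called.

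IGF2R, the clearance receptor, read 9.15, 9.09, 9.23 and 9.35 in HCT116 and 9.87, 9.71, 9.48 and 9.46 in Hke3. Each Hke3 array was above each HCT116 array, by the widest margin without coculture (0.71 and 0.62) and the narrowest in coculture (0.26 and 0.10). The fitted difference was 0.42 ± 0.10 (1.34-fold; limma adjusted p = 0.0129). Its second probe set gave 0.57 (adjusted p = 0.00234 by limma over probe sets).

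**Figure D3:**
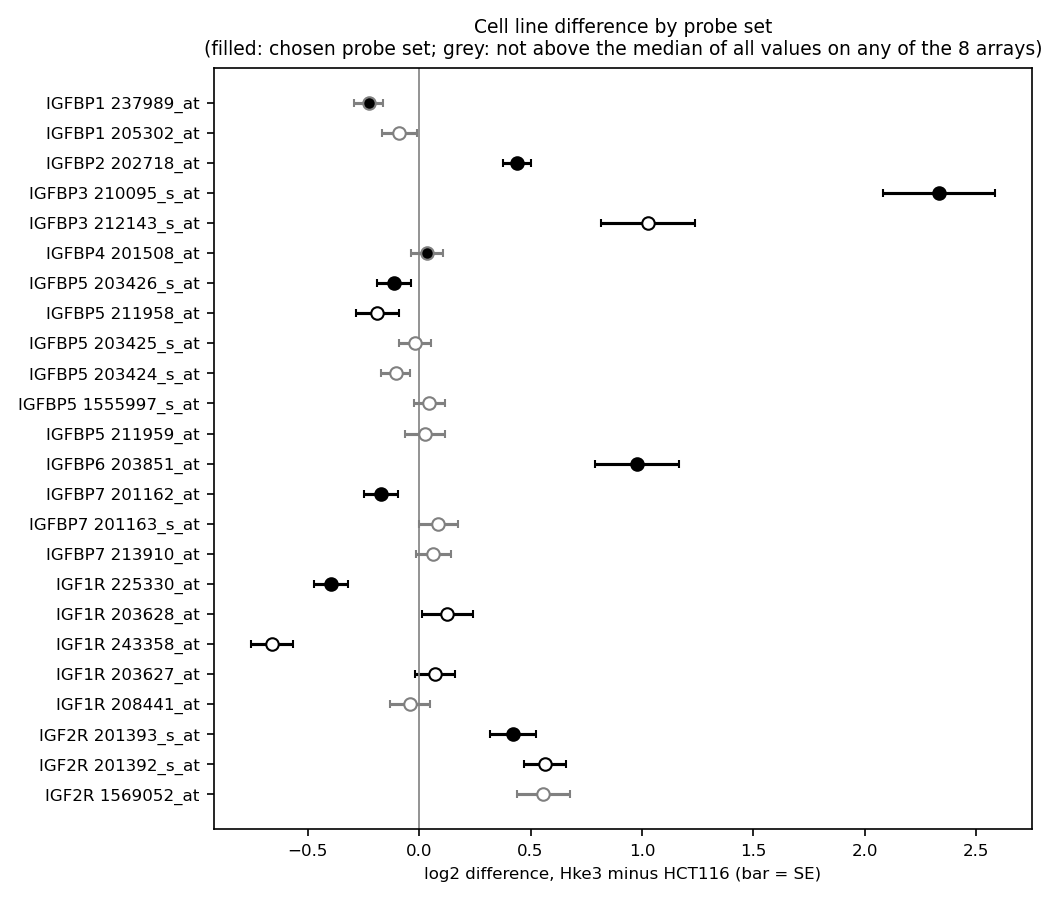
Hke3 minus HCT116 (log2, horizontal axis) with the standard error of the fit for each of the 24 probe sets; filled points are the chosen probe sets and grey points never exceeded 6.18 on the 8 colon arrays. Both IGFBP3 probe sets (2.33 and 1.03) lie above 0, while the IGF1R probe sets spread on both sides of it (-0.40, -0.66, 0.13 and 0.07, and -0.04 for a grey point).

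For vitamin D3 in the colon lines none of the 7 members passed the test. limma called 0 of 13243 genes (0%), with 375 genes (2.83%) at an unadjusted p under 0.05, none of them a member. IGFBP3, known as a vitamin D-responsive gene in other cells, differed by 0.15 ± 0.27 (95% interval -0.47 to 0.77; limma adjusted p = 0.999996), but the direction depends on labels in doubt. Its pairs were -0.38 in HCT116 and -0.08 in Hke3 without coculture, and 0.64 and 0.42 with it, the arrays whose CYP24A1 values went against their labels. With the labels of the cocultures exchanged the IGFBP3 difference was -0.38 (limma adjusted p = 0.934), and limma called 2 of 13243 genes and no member. IGFBP6 differed by 0.16 ± 0.20, with pairs of -0.18, 0.15, 0.26 and 0.40 in the same order.

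In THP1 the vitamin D3 difference rests on 1 array each and has no test. IGFBP3 read 7.46 alone and 9.11 with vitamin D3, a difference of 1.65 (3.15-fold, percentile 99.43 among 12717 genes), and 1.30 on its second probe set. IGFBP7 read 12.10 and 12.89 (1.72-fold), and 0.61 was the difference on its second probe set. IGF1R read 6.39 and 5.59, a fold of 0.575 that ended under the dim level. IGFBP2, IGFBP4 and IGF2R were higher by 0.53, 0.51 and 0.39, and IGFBP5 was lower, at -0.09. Of 7 members above the dim level, 2 were higher and 1 lower by over 1.5-fold, beside 6.59% of all 12717 genes.

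Compared with the colon lines without coculture, THP1 differed in 7 of 8 members tested, 4 higher and 3 lower. limma called 66.3% of 13778 genes in this comparison of unlike cell types (9136 genes). IGFBP4 and IGFBP6 were above the dim level only in the cells where they were high, so the count is a description. IGFBP7, a secreted protein of the vessel wall and stroma, was the highest above the colon lines, at 12.10 and 12.89 in THP1 against 7.26 to 7.56 in the 4 colon cultures. The difference was 5.13 ± 0.23 (35.0-fold; limma adjusted p = 2.72e-05), and 9.13 on the second probe set, which was dim in the colon lines. The remaining IGFBP7 probe set was dim on all 10 arrays and gave 1.34. IGFBP3 was higher by 2.14 ± 0.43 (limma adjusted p = 0.00738); this value was 1.20 without the THP1 array with vitamin D3 and 3.08 without the other THP1 array. IGFBP4, an inhibitor of IGF action that PAPPA cleaves, read 7.49 and 8.01 in THP1 and at most 6.15 in the colon lines, where it was dim throughout. Its difference of 1.69 is approximate, and it entered the fit only through its THP1 level. IGF2R read 10.90 and 11.29 in THP1 and was higher by 1.64 ± 0.13 (3.11-fold; limma adjusted p = 0.000218).

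IGFBP6 was lower in THP1 by the widest margin, with a difference of -4.19 ± 0.09. That size is approximate because the THP1 level was dim, and IGFBP6 entered the fit only through its colon levels. IGFBP2 read 8.07 and 8.60 in THP1 and was lower, with a difference of -1.77 ± 0.14 (limma adjusted p = 0.000226). IGF1R was lower, with a difference of -2.32 ± 0.19 (limma adjusted p = 0.000224). Its other probe sets were lower too but by less, at -0.72, -0.66 and -0.45, and at -0.16 on the probe set dim on all 10 arrays. The mean of its probe sets gave -0.86. IGFBP5 differed by -0.04 (limma adjusted p = 0.665). IGFBP1, made mainly by the liver, whose gene lies next to IGFBP3 on chromosome 7, stayed between 3.63 and 4.02 on all 10 arrays, under the dim level throughout.

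**Figure D4:**
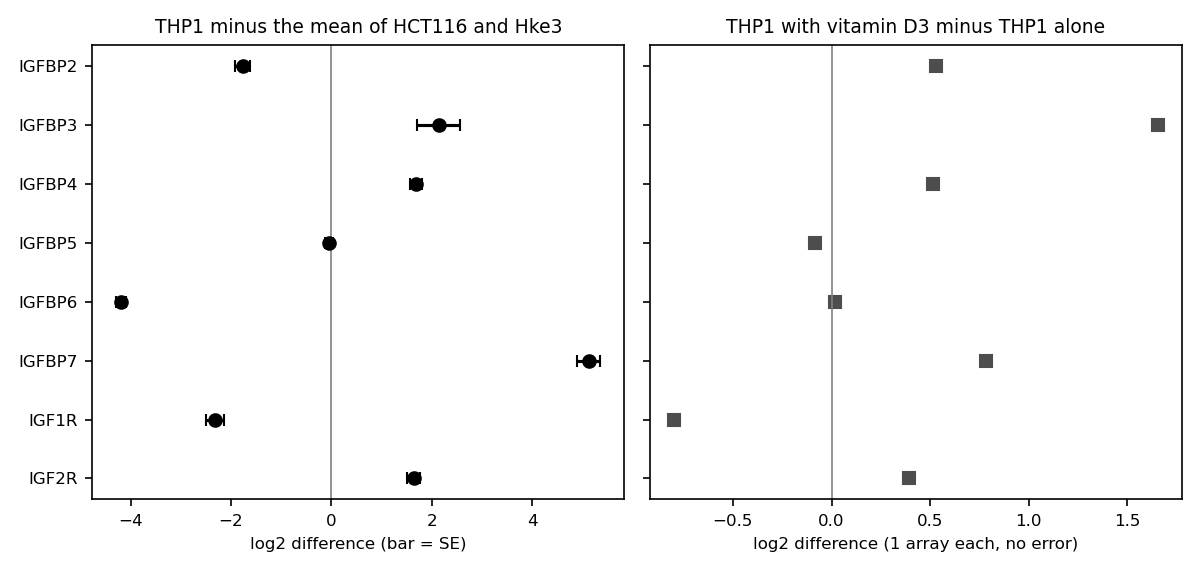
Left, THP1 minus the mean of HCT116 and Hke3 without coculture (log2) with the standard error of the fit; right, THP1 with vitamin D3 minus THP1 alone (log2), 1 array each and no error. IGFBP7 (5.13) and IGFBP6 (-4.19) mark the ends on the left, and IGFBP3 (1.65) and IGF1R (-0.80) on the right.

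The rest of the IGF pathway was followed through a list of 45 genes, 40 of them on the array: ligands, insulin receptor, adaptors, PI3K, AKT and FOXO genes, IGFBP proteases and regulators of receptor turnover. With coculture, 3 of 36 tested rose and 1 fell, with a median of -0.01 (-0.02 for all genes), beside 7.82% of all genes called. IGF2BP3, an RNA-binding protein named for its binding of IGF2 mRNA, rose by 0.48 (limma adjusted p = 0.0478), FOXO3, a transcription factor restrained by AKT, by 0.27, and GRB14, an adaptor that inhibits insulin receptor signalling, by 0.25. AKT2 fell by 0.36 on the log2 scale (limma adjusted p = 0.0247). Leaving out 1 array at a time left 0 or 1 pathway genes called: IGF2BP3 and AKT2 each passed in 2 of 8 such fits and FOXO3 and GRB14 in 0.

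For the difference in coculture response between the lines, 2 of 36 were called, both lower in Hke3, beside 4.21% of all genes. GRB10, an adaptor that binds IGF1R and the insulin receptor and restrains them, read 9.44 and 9.40 without and 9.89 and 9.87 with THP1 in HCT116, and 10.14 and 10.02 without and 9.71 and 9.71 with THP1 in Hke3. It was thus higher in both HCT116 cocultures (mean 0.46) and lower in both Hke3 cocultures (mean -0.37), an interaction of -0.83 ± 0.09 (limma adjusted p = 0.00652) that was called in each of the 15 alternatives tried. NEDD4, a ubiquitin ligase that GRB10 recruits to IGF1R, had the same signs (0.25 and -0.27; interaction -0.52, limma adjusted p = 0.0423), but it was called in none of the 8 fits that left out 1 array.

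Between the lines 17 of 36 pathway genes were called, 11 higher and 6 lower in Hke3, with a median of 0.05, beside 40.5% of all genes. PTPN1, a phosphatase that acts on the insulin and IGF receptors, was higher by 0.94, PRSS23, a serine protease, by 0.93, AKT1 by 0.87 and CTSD, a lysosomal protease sorted by mannose 6-phosphate receptors, by 0.73. INSR, the insulin receptor, was higher by 0.57 (limma adjusted p = 0.000468). PIK3R3, a regulatory PI3K subunit, gave -1.05 on levels near or under the dim level. IRS1, the adaptor that links IGF1R to PI3K, gave -0.79, STC2, an inhibitor of PAPPA proteases, -0.41 and SOS1, a guanine nucleotide exchange factor, -0.29. Averaged over each gene's probe sets, STC2 (-0.044) and SOS1 (-0.075) were no longer called, and PTPN1 (0.19), IRS1 (-0.20), PRSS23 (0.57) and INSR (0.34) differed by less and were still called.

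For vitamin D3 none of the 36 passed in the colon lines; INSR came nearest, at -0.16 (unadjusted p = 0.0443; limma adjusted p = 0.999996). In THP1, IRS1 was higher with vitamin D3 by 1.504 and CTSD by 1.39, the 2 of 32 pathway genes past 1.5-fold beside 6.59% of all genes, on 1 array each. The IRS1 size is approximate, because it read 4.88 alone, under the dim level, and 6.38 with vitamin D3. IRS1 was thus among the 32 only through the array where it was high. Against the colon lines, 22 of 37 were called in THP1, 9 higher and 13 lower, with a median of 0.03, beside 66.3% of all genes. GRB14, STC2, IGF2BP3 and PRSS23 entered the fit only through their colon levels and IGF2BP1 only through THP1, so the count is a description. PIK3R3 (2.15), CTSD (1.77), PIK3R1 (1.44) and ARRB1 (1.23) were the highest, and IGF2BP3 (-6.94), STC2 (-4.65), IRS1 (-4.55) and GRB14 (-3.67) the lowest. The low values are approximate, since IGF2BP3, STC2 and GRB14 were dim on both THP1 arrays and IRS1 on 1 of them. The PIK3R3 value is approximate too, since its levels in the colon lines without coculture, 5.21 to 6.19, were near or under the dim level. The CTSD value was 0.98 without the THP1 array with vitamin D3 and 2.56 without the other, and IRS1 gave -5.39 and -3.70. IGF1, the ligand, read 7.82 and 7.60 in THP1 and 6.52 to 6.97 in the colon lines, a difference of 0.93 (limma adjusted p = 0.00176). Against the colon lines without coculture, THP1 thus had the higher IGF1, IGF2R, IGFBP3 and IGFBP7 signals and the lower IGF1R and IGFBP2 signals. For IGFBP3 the margin over Hke3 was small without vitamin D3, at 7.46 in THP1 alone against 7.03 in Hke3 alone. The Hke3 cocultures, at 8.67 and 9.08, were above THP1 alone.

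IGFBP3 was the only member that ranged over at least 2 log2 units across the 8 colon arrays. Its nearest genes by the mean absolute difference of centred values over those 8 arrays were ENO2, a glycolytic enolase (0.33), LOXL2, a collagen crosslinking enzyme (0.34), and CXCL8, a neutrophil chemokine (0.44). ENO2 read 8.85 to 9.23 in HCT116, 10.14 and 9.83 in Hke3 without THP1, and 11.24 and 11.60 in Hke3 with THP1, the same order of groups as IGFBP3. These points share the arrays and the line difference, and the ranking is a description.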

How the data were processed

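Total RNA (5 ug, per the labels) was hybridised to 1 array per condition. Per the submitters' processing notes, which give no version, the authors used RMA in the R package affy (background correction, quantile normalisation, summarisation), and the table they deposited holds 1 log2 intensity for each probe set and array; RMA compresses differences near background. For 1 Hke3 array a single label field says untreated while 3 say vitamin D3, so it stayed in the treated group. Among 54675 probe sets, 41097 carry 1 symbol, 1801 several and 11777 none.

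The members, lists and naming rule (all members; of the pathway list up to 4 calls each way, IGF1 and INSR; CYP24A1; the 3 genes nearest a member of range 2 or more) were chosen with earlier results of these data known. Testing was limited to genes above 6.18 on at least 1 array of the fit. limma 3.58.1 (R 4.3.3; lmFit, eBayes, two-sided, Benjamini-Hochberg over all genes tested, threshold 0.05) was fitted to the 8 colon arrays with additive terms for line, vitamin D3 and coculture (4 residual degrees of freedom), or with the interaction of line and coculture (3). THP1 was compared with the mean of both lines on the 6 arrays without coculture, with 2. The spread is between single arrays of different conditions, since nothing gives replicate cultures, so p-values measure only that spread. Values after ± are SE unless called SD. The model was tested on simulated data. Figures used matplotlib 3.10.9 in Python 3.11.15. Alternatives changed the filter, probe set rule, normalisation, variance model, covariates and arrays; their use on pathway genes, and an exchange of the vitamin D3 labels of the cocultures, were added after the data were seen.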

Additional observations from a re-analysis of the deposited data

Results flagged for a closer look

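The difference in coculture response between Hke3 and HCT116 was larger than the residual spread by limma's interaction test for 1 IGF binding protein and 2 pathway genes. These were 1 of 7 members and 2 of 36 pathway genes tested, beside 557 of all 13243 genes, or 4.21%. For IGFBP6 it was 1.03 on the log2 scale, from -0.18 in HCT116 and 0.85 in Hke3, and 10 of 16 alternatives kept the call. For GRB10 it was -0.83, from 0.46 in HCT116 and -0.37 in Hke3, and 15 of 15 alternatives kept it. For NEDD4 it was -0.52, from 0.25 and -0.27, and 6 of 15 kept it. Each line has 2 arrays with and 2 without THP1 cells, and the cause was not tested.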

How the results depend on the processing

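No paired analysis was possible because each condition has 1 array and the labels number no replicates; the block of the other 2 factors compares within the 4 pairs of arrays instead. The cell-line calls of IGFBP2, IGFBP3, IGFBP6 and IGF2R held in every alternative in which they were tested. IGF1R between the lines held in 18 of 20, most of them fits of its chosen probe set, and not on the probe sets that gave 0.13 and 0.072. The 7 THP1 calls held in each alternative that tested them and kept the 2 THP1 arrays. For IGFBP4 and IGFBP6 this gives no support, because each entered the fit only through the cells where it was high. The coculture call of IGFBP3 held in 9 of 18 (adjusted p 0.0188 to 0.12). Genes called for coculture were 656 with no filter and 259 with a block of the other 2 factors; members called were 0 with that block and 0 with trend and robust eBayes. For the interaction, genes called were 277 with no filter, 973 with the 75th percentile filter, 1169 with trend and robust eBayes and 839 over probe sets; members called were 3 with that filter, 3 with trend and robust eBayes, 3 with no vitamin D3 term, 2 with the mean of probe sets and 2 with cyclic loess. Probe sets called numbered 11935 between the lines and 19977 for THP1. Exchanging the vitamin D3 labels of the cocultures, added after the data were seen, gave 978 genes and 3 members for the interaction and 2 genes for vitamin D3, and turned vitamin D3 IGFBP3 (-0.38), IGFBP6 (-0.17) and IGF1R (-0.072).

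Leaving out 1 array at a time gave 39 to 459 genes and 0 to 1 members for coculture, and 101 to 282 genes and 0 to 1 members for the interaction. It turned the sign only of values that were not called: for coculture IGFBP7 (-0.050 to 0.058), IGF1R (-0.075 to 0.044) and IGF2R (-0.18 to 0.016); for vitamin D3 IGFBP3 (-0.14 to 0.44), IGFBP5 (-0.051 to 0.069), IGFBP6 (-0.031 to 0.37), IGF1R (-0.020 to 0.068) and IGF2R (-0.13 to 0.063); for the interaction IGF1R (-0.14 to 0.17); and for THP1 IGFBP5 (-0.11 to 0.024). With 1 THP1 array left out, the other is assumed to vary like the colon cultures. Other probe sets turned the sign for coculture of IGF2R (0.13), IGFBP5 (0.028) and IGF1R (0.030), for vitamin D3 of IGFBP5 (-0.068) and IGF1R (-0.14, -0.30 and -0.043), for the line of IGF1R (0.072 and 0.13), and for the interaction of IGFBP5 (0.0030) and IGF1R (-0.043, -0.47 and -0.047). The mean of probe sets turned coculture IGF2R (0.047), vitamin D3 IGF1R (-0.13), interaction IGF1R (-0.11) and line ARRB1 (-0.018, against a called 0.19). The cause was not tested. Depth does not apply to arrays. Dim levels limit IGFBP1, IGFBP4, IGFBP5 and IGFBP3 in HCT116. They also limit IGFBP7 in the colon lines, where its chosen probe set read 7.18 to 7.56 and its others 3.37 to 3.81.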

Other observations

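A group of 3 probe sets carries the symbols of both IGF2 and the INS-IGF2 readthrough gene and can be assigned to neither alone, so their values are given without a test. The brightest read 7.46 alone, 7.37 with vitamin D3, 7.86 with THP1 and 7.77 with both in HCT116, 8.32, 8.38, 8.89 and 8.88 in Hke3, and 5.70 and 5.22 in THP1. Both cocultures were above both other cultures in each line, and every Hke3 array was above every HCT116 array. Another ran from 6.80 to 7.09 over the colon arrays with no such order and read 6.44 and 6.33 in THP1, and the dimmest stayed between 5.76 and 6.32 on all 10 arrays.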
